A study of Mus musculus with 6 samples.

Results

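Most of the 57 genes described here encode catalytic or accessory subunits of the ATP-dependent chromatin remodelers. Another 6 are ARID genes outside SWI/SNF, and all 57 are called remodeling genes below. The RNA of all 57 was measured after a pulldown of long-lived RNA from mouse quiescent neural progenitor cells. The 57 were the protein-coding genes whose symbols matched a fixed pattern, out of 55416 gene IDs counted and 21928 protein-coding IDs. The pattern named the SWI/SNF, ISWI, CHD and NuRD, INO80 and ARID gene families. It holds no measured values, but the members were chosen with earlier results of these data known. Remodelers use ATP to slide, evict or exchange nucleosomes. Each complex is built around 1 ATPase of the SNF2 superfamily, and the other subunits recognise histone marks or DNA, hold the complex together and set where it acts. In neural progenitors the SWI/SNF (BAF) complex is known for exchanging paralogous subunits as cells leave the cycle and become neurons.

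The progenitors came from embryonic mouse brain and were held in quiescence by Bmp4 (20 ng/ml) with FGF2 (10 ng/ml), in DMEM/F12 medium with N2 and B27 supplements. At 1 day after quiescence was induced, 3 samples received 250 µM ethynyluridine (EU), a uridine analogue that cells build into new RNA, and 3 received PBS, the vehicle. RNA was taken on day 8, and EU-carrying RNA was biotinylated by a click reaction and captured on streptavidin beads. The PBS samples went through the same pulldown, so their libraries hold RNA that bound without EU. No genotype or strain difference separates the groups, and it is not stated whether the replicates are separate cultures. The p-values below therefore rest on a spread that could be technical.

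Sequencing gave 9564856, 26479031 and 23527595 counts for EU replicates 1 to 3, and 647416, 413181 and 729649 for PBS replicates 1 to 3. Levels are in CPM, the usual count scaled to library size, here with TMM factors. A gene with 3 counts sat at 0.106 to 0.380 CPM in EU but at 3.86 to 6.38 CPM in the shallower PBS libraries. Progenitor markers were present at like summed levels, 6387 ± 912 CPM (EU) and 6360 ± 322 CPM (PBS; SD, n = 3), with Hes1 low in both groups. Slc1a3 alone gave 3229 and 3279 CPM of these sums. Nes (73.1 against 37.2 CPM) and Notch1 (746 against 497 CPM) lay higher in every EU library than in any PBS library, and the other 8 overlapped. Of the astrocyte markers, Gfap, Aqp4 and Gja1 lay lower in every EU library than in any PBS library, while Aldh1l1, S100b and Aldoc overlapped with log2 folds of 0.21, 0.77 and 0.18. The 6 astrocyte markers summed to 3814 ± 1640 CPM against 8791 ± 5070 CPM, with Gfap alone at 7440 CPM in PBS replicate 1. Their part in the results below was not tested. The microglial markers Csf1r, Cx3cr1, Aif1 and C1qa had no count in any library. Cell cycle markers stood apart in EU replicate 2, at a sum of 963 CPM against 232 and 239 CPM in the other EU libraries and 71.5 to 238 CPM in PBS.

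All 57 genes had at least 1 count in every EU library. Together they took 0.401%, 0.561% and 0.483% of the EU counts and 0.444%, 0.560% and 0.437% of the PBS counts, so the remodeling genes made up a like share of both pulldowns. In absolute terms this was 38346, 148640 and 113528 counts against 2873, 2312 and 3191. Before scaling, each of the 54 genes tested was called higher in EU (edgeR quasi-likelihood test on unscaled counts, adjusted p from 1.63e-09 for Smarca4 to 0.0196 for Baz1a), as were 97.6% of all 12477 genes tested, and all 54 had every EU count above every PBS count (98.9% of all tested genes). That comparison carries the difference in library depth, and everything below is relative to the other RNA in the same library.

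After scaling, the summed level of the 57 genes was 4852, 5243 and 5244 CPM in EU and 4567, 4916 and 4109 CPM in PBS, or 5113 ± 226 against 4531 ± 405 CPM (SD, n = 3), a ratio of 1.13 that became 0.999 with library size as the only scaling. No remodeling gene passed an adjusted p of 0.05 in either direction (edgeR quasi-likelihood test), against 0% of all tested genes called higher and 0.024% called lower. The smallest adjusted p was 0.103, for Dpf3. At an unadjusted p under 0.05, 7 of 54 genes lay higher (13.0%, against 12.6% of all tested genes) and 0 lower (against 4.03%). These 7 were Dpf3, Ep400, Baz1b, Smarcd1, Chd7, Smarcd2 and Chd8. The low-count filter asked for 1.94 CPM by library size in 3 libraries, and 43 of the 54 genes reached that in all 3 PBS libraries. Dpf3 and Smarcd2 reached it in 3 EU libraries but only 1 PBS library each, and Actl6a in 3 and 2. The filter kept these genes through EU, so their places among genes higher in EU are not independent of it. DESeq2 called 2 of the genes higher, Dpf3 and Ep400, where it called 4.06% of all genes. limma-voom called 0, and limma-voom with a weight per group called Dpf3 and Smarcd2, where it called 5.79% of all genes.

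The fitted log2 folds of EU over PBS had a median of 0.18 over the 54 genes, beside 0.15 over all tested genes. The quartiles lay at -0.18 and 0.63, and 34 of the 54 folds were positive (63.0%, against 56.5% of all tested genes). The median of all tested genes was -0.02 with library size alone and 0.05 with DESeq2 size factors, so a fold near these values has no direction of its own. Of the 54, 11 had every EU library above every PBS library (20.4%, against 21.8% of all tested genes), 3 had every EU library below (5.56%, against 6.40%), and 40 overlapped. None of the 54 was without any PBS count (5.54% of all tested genes were). Among the better measured genes, at a mean of 50 CPM or more, 7 of 34 remodeling genes were separated upward (20.6%, against 17.9%), 2 downward (against 8.43%), and their median log2 fold was 0.09, beside 0.10 for all 3430 such genes. The number separated upward was 6 with library size alone and 19 without PBS replicate 1, and the number separated downward was 12 without PBS replicate 3, 7 without PBS replicate 1 and 6 without PBS replicate 2. The same shares of all tested genes were not computed for these alternatives. Leaving out a library makes separation easier for any gene, so the larger counts cannot be read as particular to the remodeling genes. By the shares in the reported fit, the set as a whole sat close to the rest of the transcriptome in the pulldown.

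**Figure D1:**
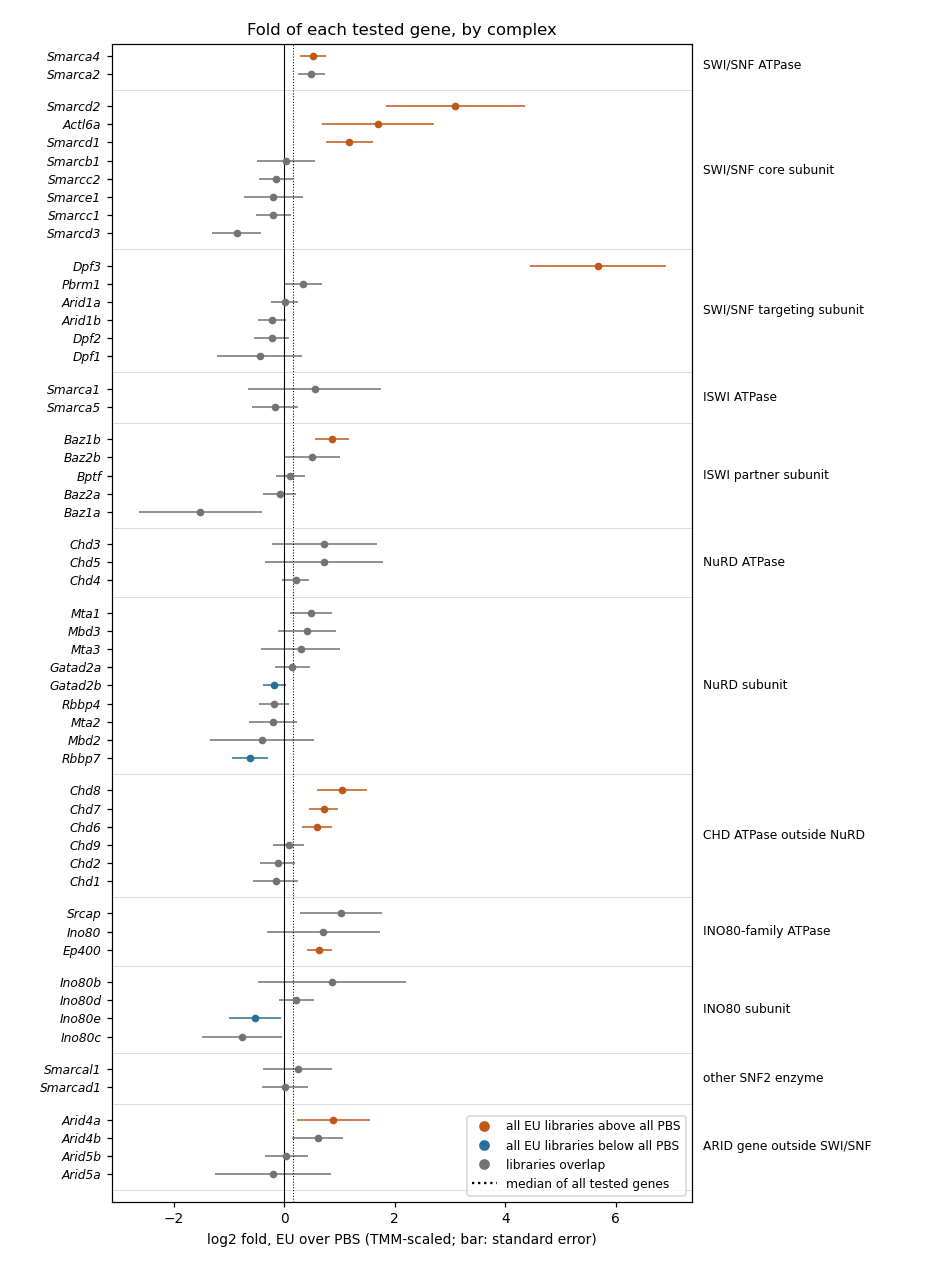
Fitted log2 fold of EU over PBS with its standard error for the 54 tested remodeling genes, ordered by role; the dotted line marks the median of all tested genes at 0.15. Dpf3 stands farthest to the right at 5.67 and Baz1a farthest to the left at -1.52, and the 11 genes separated upward and 3 separated downward are coloured.

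The libraries were not equally precise. Across the 54 genes the median coefficient of variation between replicates was 11% in EU and 43.4% in PBS. Members correlated on the log2 CPM scale at r = 0.969 to 0.992 between EU libraries, at 0.592 to 0.678 between PBS libraries, and at 0.699 to 0.818 between the groups. These r values are across genes within pairs of libraries, and genes are not independent replicates. The chi-square per degree of freedom between replicates, which averages 1 under counting error alone, had a median of 11.6 in EU and 5.6 in PBS. It was above 1 for 51 genes in EU and 48 in PBS, though values just above 1 can come from counting error. The same numbers over all tested genes were not computed. In PBS, 36 of the tested genes had at least 10 counts in every library and 7 had 0 in at least 1.

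SWI/SNF contributed the largest summed level of the complexes, at 1802 ± 35.9 CPM in EU and 1674 ± 163 CPM in PBS over its 17 genes. Its ATPases are Smarca4 (Brg1), which dominates in dividing progenitors, and Smarca2 (Brm). Smarca4 (ENSMUSG00000032187) measured 246, 268 and 277 CPM in EU and 192, 219 and 142 CPM in PBS. Its groups did not overlap, but the log2 fold of 0.52 ± 0.24 (SE) had an adjusted p of 0.330 (edgeR). Smarca2 (ENSMUSG00000024921) measured 182, 230 and 225 CPM against 137, 185 and 134 CPM, groups that overlapped by a single pair, with a log2 fold of 0.49 ± 0.25 (edgeR adjusted p = 0.387). Per kilobase of exon, Smarca4 held 73.3% ± 1.46 of the ATPase RNA of this complex in EU and 72.6% ± 2.83 in PBS, so the balance of the pair was alike in both pulldowns.

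The subunits that form the SWI/SNF core held the clearest shift within a gene family. Smarcd1, Smarcd2 and Smarcd3 encode the BAF60a, BAF60b and BAF60c subunits, alternatives for 1 place in the complex that bridge it to transcription factors. A stretch of 60 coding bases is shown to make plain where reads can tell them apart. It was picked as the stretch in which Smarcd2 and Smarcd3 together lay closest to Smarcd1. Other stretches were no more alike. It covers coding positions 1117 to 1176 of Smarcd1 (chromosome 15), 1165 to 1224 of Smarcd2 (chromosome 11) and 1021 to 1080 of Smarcd3 (chromosome 5), each 5′ to 3′ on the coding strand, from GENCODE release M21. Capitals mark the 15 positions not shared by all 3.
Smarcd1: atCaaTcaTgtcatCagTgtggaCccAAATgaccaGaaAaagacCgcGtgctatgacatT
Smarcd2: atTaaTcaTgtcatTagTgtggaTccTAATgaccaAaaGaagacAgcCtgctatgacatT
Smarcd3: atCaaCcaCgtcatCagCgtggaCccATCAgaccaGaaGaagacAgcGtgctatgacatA
Within this stretch Smarcd2 differed from Smarcd1 at 8 positions and Smarcd3 at 9, and none of the 3 genes shared a 50-base run with any other gene's transcripts.

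Smarcd1 (ENSMUSG00000023018) measured 80.4, 59.7 and 80.6 CPM in EU and 20.7, 29.8 and 46.4 CPM in PBS. All EU libraries lay above all PBS libraries, with a log2 fold of 1.18 ± 0.42 (edgeR adjusted p = 0.193). Smarcd3 (ENSMUSG00000028949) measured 53.7, 41.2 and 44.8 CPM in EU against 41.3, 85.1 and 126 CPM in PBS. Its groups overlapped through PBS replicate 1, and the log2 fold was -0.86 ± 0.44 (edgeR adjusted p = 0.396). Smarcd2 (ENSMUSG00000078619) had 85, 242 and 184 counts in EU and 2, 0 and 0 counts in PBS. The ratio of its rates was 8.28, with an interval from 2.28 to 68.5 (95%, counting error only). Its fitted log2 fold of 3.09 ± 1.26 (edgeR adjusted p = 0.266) ran from 2.37 without PBS replicate 3 to 9.78 without PBS replicate 1, which holds both PBS counts.

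Shares within the family do not depend on how libraries are scaled. Per kilobase of exon, Smarcd1 made up 59.7%, 58.7% and 64.3% of the family's RNA in EU and 36.4%, 30.8% and 31.8% in PBS. Smarcd3 made up 31.3%, 31.9% and 28.1% in EU and 57.3%, 69.2% and 68.2% in PBS. The family's leading gene was thus Smarcd1 in every EU library and Smarcd3 in every PBS library, and the means, 60.9% ± 2.98 against 33.0% ± 2.99 for Smarcd1 and 30.4% ± 2.04 against 64.9% ± 6.60 for Smarcd3 (SD, n = 3), were farther apart than the replicates. An exact test of 3 against 3 libraries cannot give a p under 0.1. Smarcd3 overlaps the exons of Chpf2, a gene on the other strand, over 2564 of its 5120 exonic bases, and the strand setting of the counting is not given in the sources used here. Smarcd1 also overlaps exons on the other strand, over 511 of its 4026 exonic bases. Chpf2 itself stood at 35.2 ± 5.04 CPM (EU) and 70.0 ± 31.8 CPM (PBS), lower on average in EU like Smarcd3. Every EU library lay below every PBS library for Chpf2, narrowly so for EU replicate 2 (40.99 CPM) against PBS replicate 1 (41.33 CPM). The part of Chpf2 in the Smarcd3 value was not tested.

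**Figure D2:**
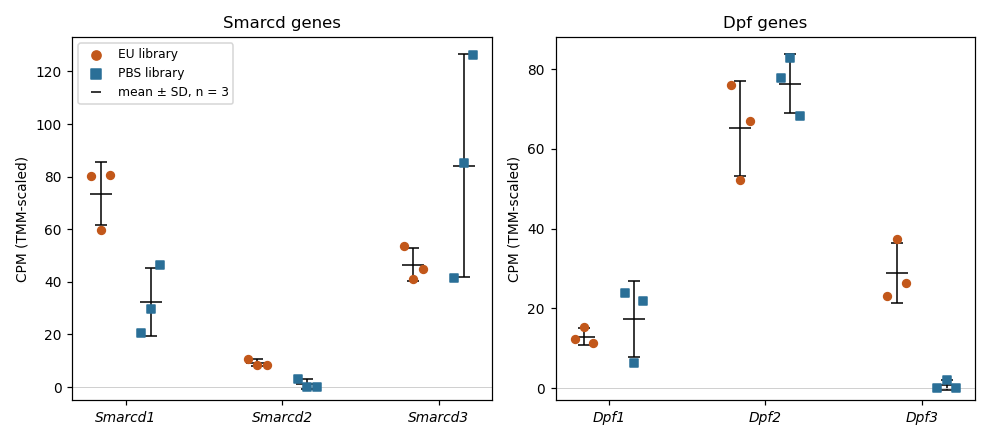
CPM in each library for the Smarcd and Dpf families, with the mean and SD of each group (n = 3). Smarcd1 and Dpf3 lie higher in every EU library than in any PBS library, and Dpf3 is near 0 in PBS.

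The DPF genes encode the BAF45 subunits, paired PHD finger proteins that bind acylated histone tails. Dpf3 (ENSMUSG00000021221), known from heart and muscle and from postmitotic neurons, had 183, 1061 and 570 counts in EU and 0, 1 and 0 counts in PBS. In CPM this was 23.2, 37.4 and 26.3 against 0, 2.13 and 0, and its fitted fold was the largest of the 54 genes. The ratio of its rates was 58.8, with an interval from 10.5 to 2323 (95%, counting error only), and the fitted log2 fold of 5.67 ± 1.23 had an adjusted p of 0.103 (edgeR). Over the alternatives fitted on scaled counts the adjusted p ran from 0.00136 with DESeq2 to 0.246 without EU replicate 2. The fitted fold itself ran from 4.96 without PBS replicate 3 to 11.43 without PBS replicate 2, which holds the only PBS count.

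Dpf2 (ENSMUSG00000024826), the broadly expressed relative, measured 76.1, 52.3 and 67.1 CPM in EU and 77.9, 82.9 and 68.3 CPM in PBS. Every EU library lay below PBS replicates 1 and 2 but not below replicate 3, and the log2 fold was -0.23 ± 0.32 (edgeR adjusted p = 0.815). Dpf1, a neuronal member, measured 12.9 ± 2.08 CPM against 17.4 ± 9.57 CPM. Of the family's RNA per kilobase, Dpf3 held 28.2%, 44.9% and 33.4% in EU and 0%, 3.48% and 0% in PBS, while Dpf2 held 52.1% ± 10.1 in EU and 77.8% ± 9.13 in PBS. Both sets of shares were separated between the groups.

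Of the other SWI/SNF core subunits, Actl6a was separated upward and the rest overlapped or were not tested. Actl6a (BAF53a), the actin-like subunit of progenitors, measured 13.4, 20.1 and 13.5 CPM in EU and 11.1, 2.13 and 1.29 CPM in PBS, with 7, 1 and 1 counts behind the PBS values (log2 fold 1.69 ± 1.01, edgeR adjusted p = 0.495). Its neuronal counterpart Actl6b had 11, 5 and 9 counts in EU and 10, 0 and 0 in PBS and was too low to be tested. The scaffold genes Smarcc1 and Smarcc2 had log2 folds of -0.20 ± 0.32 and -0.15 ± 0.31 (edgeR adjusted p = 0.839 and 0.882). Smarcc2 was steady in EU at 218, 218 and 224 CPM but ranged over 345, 236 and 153 CPM in PBS. The core genes Smarcb1 (log2 fold 0.03 ± 0.52) and Smarce1 (-0.20 ± 0.53) were also within their spread.

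Among the targeting subunits, Arid1a, the DNA-binding subunit of the canonical BAF form, was the most abundant gene at 362, 317 and 346 CPM in EU and 237, 413 and 372 CPM in PBS. Its log2 fold was 0.01 ± 0.25 (edgeR adjusted p = 0.995). Its paralogue Arid1b measured 127 ± 6.13 against 149 ± 24.3 CPM, and Arid1a held 74.6% ± 1.68 of the pair's RNA per kilobase in EU and 70.8% ± 7.28 in PBS. Pbrm1, which defines the PBAF form and reads acetylated histones through bromodomains, measured 122 ± 11.6 against 96.4 ± 35.3 CPM (log2 fold 0.35 ± 0.34, edgeR adjusted p = 0.711). Neither ARID paralogue had groups that stood apart.

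The ISWI remodelers space nucleosomes in regular arrays, through the ATPases Smarca5 (Snf2h) and Smarca1 (Snf2l). Smarca5 measured 83.5, 118 and 94.5 CPM in EU and 124, 162 and 50.2 CPM in PBS, a wide and overlapping spread (log2 fold -0.17 ± 0.42, edgeR adjusted p = 0.909). Of its transcript sequence, 28.2% of 50-base runs recur in other annotated genes, mostly processed pseudogenes, so its count is uncertain. Smarca1 was low, at 12.9 ± 0.954 against 9.21 ± 10.9 CPM. Of the partner subunits, Baz1b, the Williams syndrome transcription factor, measured 109, 170 and 117 CPM in EU and 77.9, 59.5 and 79.8 CPM in PBS. Its EU libraries were all higher, with a log2 fold of 0.86 ± 0.31 (edgeR adjusted p = 0.190). Baz1a (ACF1) had 22, 0 and 45 counts in the 3 PBS libraries, and its log2 fold of -1.52 ± 1.12 had an adjusted p of 0.595 (edgeR). Bptf, the NURF subunit that binds trimethylated H3K4, measured 195 ± 10.5 against 180 ± 50.3 CPM, and Baz2a, the NoRC subunit of ribosomal gene silencing, and its relative Baz2b had log2 folds of -0.09 ± 0.30 and 0.51 ± 0.50.

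NuRD couples nucleosome remodeling to histone deacetylation. Its ATPase Chd4 (Mi-2β) had the highest level per kilobase of all 57 genes in both pulldowns, at 57.5 ± 4.47 CPM per kb in EU and 49.9 ± 12.6 in PBS. In CPM it measured 431, 453 and 501 against 447, 470 and 285 (log2 fold 0.21 ± 0.24, edgeR adjusted p = 0.772). Chd3 and Chd5, the paralogues linked to later neuronal stages, were low at 8.23 ± 0.855 and 10.9 ± 5.12 CPM in EU. Chd4 held 96.4% ± 0.903 of the trio's RNA per kilobase in EU and 97.3% ± 1.80 in PBS. Nearly all NuRD ATPase RNA in either pulldown was thus of Chd4.

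The NuRD subunits held 2 of the 3 genes that were separated downward. Rbbp7 (ENSMUSG00000031353), a histone-binding WD40 protein, measured 46.6, 62.8 and 47.3 CPM in EU and 68.4, 95.7 and 77.3 CPM in PBS (log2 fold -0.62 ± 0.33, edgeR adjusted p = 0.420). Of its 50-base runs, 6.97% recur in a processed pseudogene that had at most 6 counts in any library. Gatad2b, which links the MBD and CHD4 parts of the complex, measured 207, 179 and 202 CPM against 226, 215 and 225 CPM (log2 fold -0.18 ± 0.21, edgeR adjusted p = 0.770).

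Rbbp4, the close paralogue of Rbbp7, measured 91.4 ± 14.3 against 104.1 ± 6.22 CPM. It held 36%, 36.2% and 38.4% of the pair's RNA per kilobase in EU and 32.1%, 27.4% and 31.5% in PBS, so the pair's shares were separated, though by a small margin. Of the MTA scaffold genes, Mta2 held 33.6% ± 0.956 of the trio in EU and 43.9% ± 7.72 in PBS, also separated, while the shares of Mta1 and Mta3 overlapped. The log2 folds of Mta1, Mta2 and Mta3 were 0.49 ± 0.38, -0.21 ± 0.43 and 0.30 ± 0.71, with edgeR adjusted p-values of 0.617, 0.887 and 0.906. Mbd2 and Mbd3, the methyl-CpG-binding family members that define alternative NuRD forms, measured 22.9 ± 0.812 against 30.7 ± 25.5 CPM and 62.9 ± 10.9 against 47.9 ± 27.3 CPM. Mbd2 had 29, 21 and 1 counts in the 3 PBS libraries, and no direction could be read from it.

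The CHD ATPases outside NuRD gave 3 of the 11 genes separated upward. Chd7 (ENSMUSG00000041235), mutated in CHARGE syndrome and active at enhancers of neural progenitors, measured 184, 168 and 217 CPM in EU and 92.2, 147 and 111 CPM in PBS (log2 fold 0.71 ± 0.27, edgeR adjusted p = 0.221). Chd8 (ENSMUSG00000053754), an autism-linked gene, measured 124, 135 and 129 CPM against 52.5, 27.6 and 106 CPM (log2 fold 1.04 ± 0.45, edgeR adjusted p = 0.295). Chd6 measured 137, 179 and 181 CPM against 127, 117 and 86.3 CPM (log2 fold 0.59 ± 0.27, edgeR adjusted p = 0.325). In each of these 3 genes the lowest EU library stood above the highest PBS library, by a narrow margin for Chd6. Chd1, Chd2 and Chd9 had log2 folds of -0.15 ± 0.41, -0.12 ± 0.32 and 0.08 ± 0.28 and overlapped. The 6 genes summed to 743 ± 61.9 CPM in EU and 558 ± 57.0 CPM in PBS.

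The INO80 family, whose enzymes move nucleosomes and exchange the histone variant H2A.Z, summed to 478 ± 5.92 CPM in EU and 354 ± 69.3 CPM in PBS over 7 genes. Its largest enzyme by level was Ep400 (ENSMUSG00000029505), the ATPase of the TIP60 complex, at 224, 213 and 231 CPM in EU and 126, 159 and 147 CPM in PBS. The groups were well separated, with a log2 fold of 0.63 ± 0.22 and an adjusted p of 0.186 (edgeR), and DESeq2 gave an adjusted p of 0.0414. Srcap measured 63.1, 49.1 and 54.9 CPM against 11.1, 6.38 and 61.8 CPM, so the group difference came from 2 of the 3 PBS libraries. Another annotated gene on the same strand, Gm42715, overlaps 9738 of the 15783 exonic bases of Srcap. Of the 50-base runs of Srcap, 60.3% recur in other genes, which makes the Srcap count uncertain. Gm42715 itself had 14, 55 and 43 counts in EU and 0 in each PBS library. Ino80 measured 40.0, 52.4 and 40.5 CPM against 0, 65.9 and 18.03 CPM.

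Of the other INO80 subunits, 1 was separated between the groups. Ino80e was the third gene separated downward, at 23.7, 24.4 and 24.99 CPM in EU and 35.0, 31.9 and 38.6 CPM in PBS (log2 fold -0.53 ± 0.47, edgeR adjusted p = 0.667), on 22, 15 and 30 PBS counts. Ino80b had 0, 0 and 12 counts in PBS and 86, 243 and 235 in EU. Ino80c (log2 fold -0.77 ± 0.73) and Ino80d (0.22 ± 0.32) overlapped between the groups.

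The remaining SNF2 enzymes were Smarcad1, which restores silent chromatin behind the replication fork, and Smarcal1, which reanneals DNA at stalled forks. They had log2 folds of 0.01 ± 0.42 and 0.24 ± 0.62 and overlapped. Among the ARID genes outside SWI/SNF, Arid4a, a subunit of the Sin3 corepressor, measured 35.2, 42.3 and 37.7 CPM in EU and 27.0, 4.25 and 29.6 CPM in PBS (log2 fold 0.89 ± 0.67, edgeR adjusted p = 0.603). Its relative Arid4b and the transcription regulators Arid5a and Arid5b overlapped between the groups. Arid3a and Arid3b had no count in any PBS library and 17, 50, 42 and 17, 76, 52 counts in EU. Against a floor of 3 counts over the PBS group they were at least 1.22-fold and 1.51-fold higher in EU, and both fell under the filter on low counts, so they were not tested.

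Set side by side, the enzymes and the other subunits differed in how often their folds were positive. Of the 18 ATPases and SNF2 enzymes, 15 had a positive log2 fold (56.5% of all tested genes did), 5 were separated upward (21.8% of all) and none downward (6.40% of all). None passed an adjusted p of 0.05 (edgeR), and 3 lay higher at an unadjusted p under 0.05 (12.6% of all). Their median log2 fold was 0.54, and they summed to 2206 ± 149 CPM in EU and 1694 ± 298 CPM in PBS. Of the 36 other tested genes, 19 were positive, 6 were separated upward and 3 downward, with a median of 0.02 and sums of 2908 ± 79.3 and 2836 ± 117 CPM over all 39. The positive enzymes numbered 13 with library size alone, 17 with limma-voom, 12 without PBS replicate 3 and 18 without PBS replicate 2. These counts are a description, since the genes within a group are not independent and the difference between the groups of genes was not tested.

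Levels between genes were compared per kilobase of exon. In EU the order ran from Chd4 (57.5 CPM per kb), Smarca4 (40.8 ± 2.46) and Smarcc2 (39.6 ± 0.619) through Mbd3 (31.7 ± 5.49), Arid1a (29.8 ± 1.97) and Mta1 (23.8 ± 1.03) to Actl6b (0.155 ± 0.151). Smarca4 and Smarcc2 did not differ beyond their spread, nor did Mbd3 and Arid1a, whereas Chd4 and Mta1 stood off from their neighbours. The lowest 6 genes in EU were Arid5a, Chd5, Chd3, Arid3a, Arid3b and Actl6b. Smarcd1 took rank 7 in EU (18.3 ± 2.97 CPM per kb) and rank 27 in PBS (8.01 ± 3.24). Dpf3 took rank 33 in EU and 55 in PBS. The abundant end of the order was thus set by NuRD and SWI/SNF genes in the EU pulldown, and the neuronal paralogues Actl6b and Chd5 lay near its foot.

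**Figure D3:**
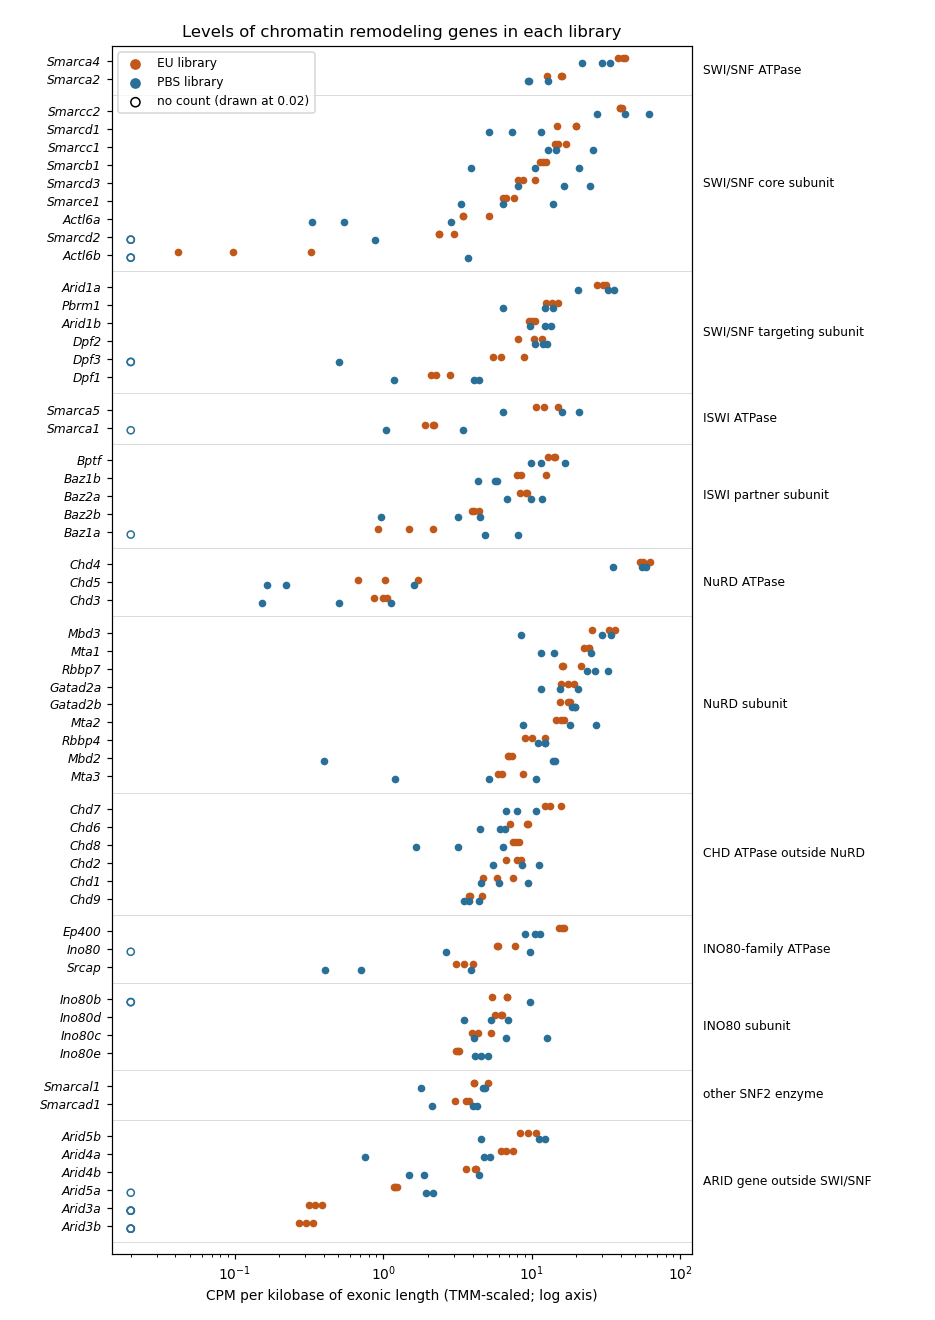
CPM per kilobase of exonic length (log axis) of all 57 remodeling genes in each EU and PBS library, grouped by role; open circles at 0.02 stand for libraries with no count. The PBS points of most genes spread more widely than their EU points, and Chd4 has the highest mean in both groups.

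In all, 14 sets of paralogues were compared by shares per kilobase. In 4 of them, the Smarcd, Dpf, Mta and Rbbp families, at least 1 gene's shares were separated between the groups. In the other 10 all shares overlapped. A single separated share has an exact permutation p of 0.1 with 3 against 3 libraries. With 14 sets looked at, some separated shares are expected from random order alone. No such rate over other gene families was computed. The Baz1 pair shows the limit of the PBS libraries: Baz1b held 89.7%, 85.1% and 85.2% in EU but 53.8%, 100% and 41.9% in PBS. The Gatad2 pair was near balance in both, with Gatad2a at 50.5% ± 4.51 and 44.4% ± 7.06.

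**Figure D4:**
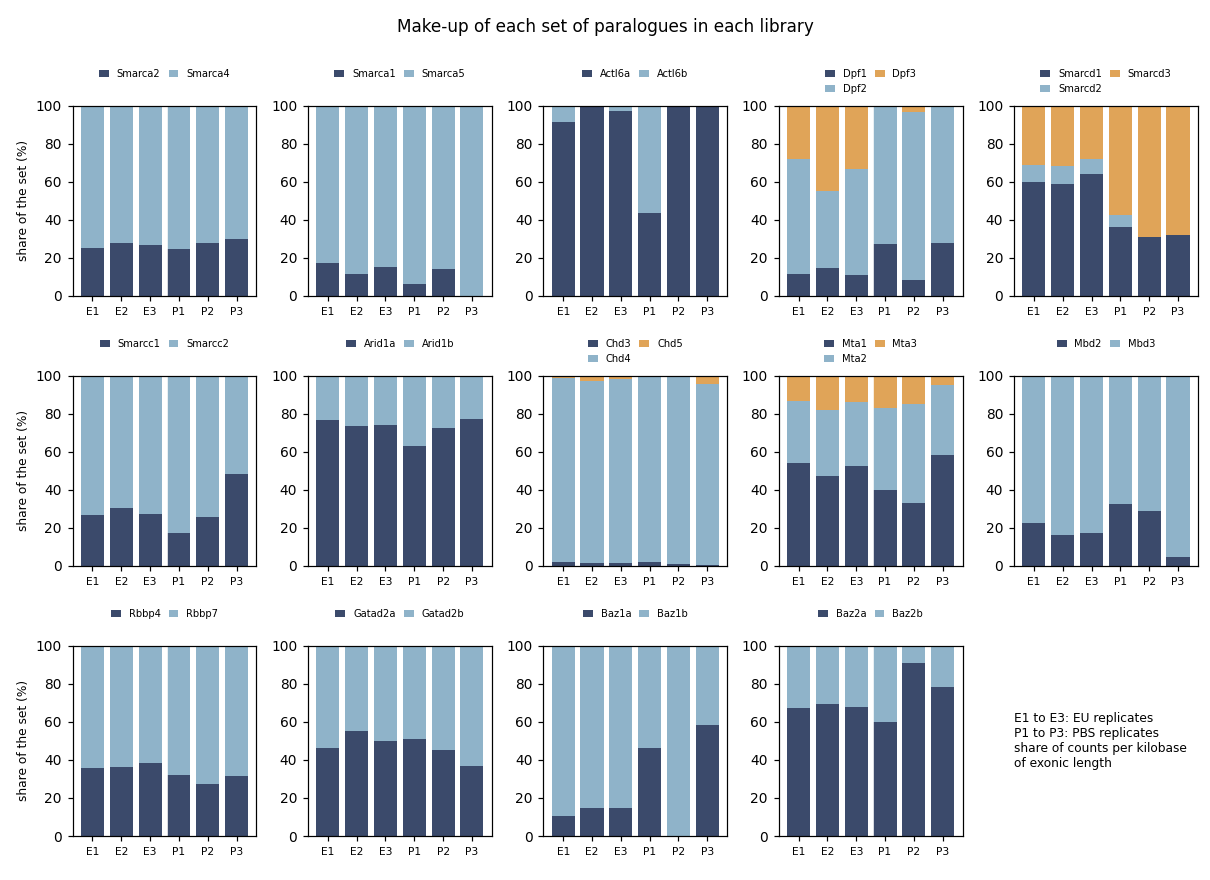
Share of each paralogue in its family's RNA per kilobase of exon, in percent, for EU replicates 1 to 3 (E1 to E3) and PBS replicates 1 to 3 (P1 to P3). In the Smarcd panel the leading gene is Smarcd1 in each EU library and Smarcd3 in each PBS library.

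The remodeling genes were longer than most, with a median exonic length of 7881 bases against 4856 over the tested protein-coding genes, and had a median uridine content of 22.8% against 25.04%. EU can enter RNA only in place of uridine. Over the 54 genes the log2 fold correlated with uridine content at Pearson r = -0.16 (Spearman rho = -0.28), with log2 exonic length at r = -0.11 (rho = 0.12) and with log2 mean CPM at r = -0.31 (rho = -0.16). These correlations are across genes that share the same 6 libraries, and the log2 mean CPM contains the values the fold is made of. Over the 11098 tested protein-coding genes r was -0.07 for uridine content (11096 with a value), -0.02 for length and -0.38 for mean CPM.

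EU replicate 2, in which the cell cycle markers were high, was the highest EU library for 28 of the 54 genes, against 11 for replicate 1 and 15 for replicate 3. Its log2 deviation from the mean of the EU libraries had a median of 0.07 over the remodeling genes and 0.98 over the cell cycle markers. The largest deviations were 0.60 for Chd5, 0.51 for Baz1a, 0.37 for Dpf3 and 0.37 for Baz1b, and the lowest was -0.32 for Dpf2. Without EU replicate 2 the log2 folds of Baz1b and Dpf3 were 0.64 and 5.38, and Smarcad1 and Chd9 turned to -0.07 and -0.02.

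**Figure D5:**
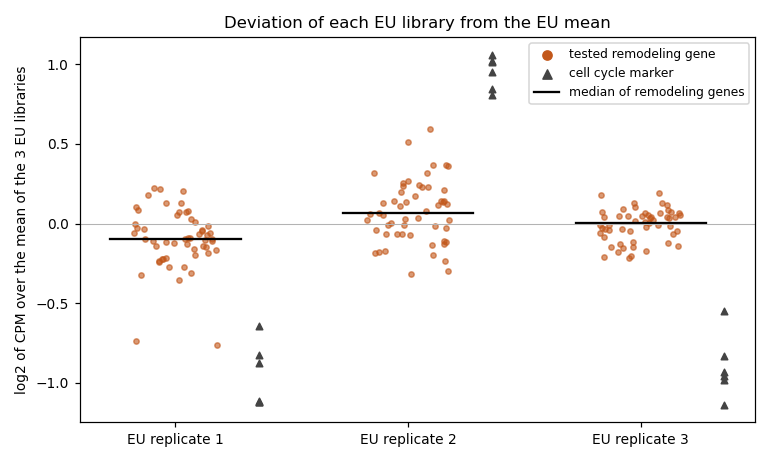
Log2 deviation of each EU library from the mean of the 3 EU libraries, for the 54 tested remodeling genes (points, with their median as a line) and 6 cell cycle markers (triangles). The cell cycle markers lie far above 0 in EU replicate 2 and below it in the others, while the medians of the remodeling genes lie between -0.10 and 0.07, with single genes from -0.76 to 0.60.

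A list of 52 further remodeler genes that the symbol pattern does not take, such as the PBAF subunit Arid2, the NuRD deacetylases and the RuvB-like helicases, was read beside the 57. None of the 52 passed an adjusted p of 0.05 (edgeR; 4 higher and 1 lower at an unadjusted p under 0.05, beside 12.6% and 4.03% of all tested genes). Of the 52, 32 had a positive log2 fold (56.5% of all), 12 were separated upward (21.8% of all) and 2 downward (6.40% of all), and the median was 0.16. Arid2, which marks the same PBAF form as Pbrm1, measured 148 ± 7.59 against 75.02 ± 12.9 CPM (log2 fold 0.98 ± 0.27, edgeR adjusted p = 0.103). Yeats4, a histone acetyl-lysine reader of the SRCAP and TIP60 complexes, lay lower, at 17.1 ± 1.39 against 54.7 ± 34.2 CPM (log2 fold -1.69 ± 0.55, edgeR adjusted p = 0.156). Bcl11a, a SWI/SNF-associated zinc finger gene, and Rad54l, a recombination helicase, had no count in PBS and 4.63 ± 0.988 and 11.8 ± 8.95 CPM in EU. The filter kept both through EU alone, so their places among the genes higher and separated upward are not independent of it. Rad54l measured 22.1 CPM in EU replicate 2, where cell cycle markers were high, against 6.96 and 6.28 CPM in EU replicates 1 and 3.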

How the data were processed

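RNA was sequenced from 6 pulldown libraries, 3 EU and 3 PBS. Each value the authors deposited is a whole-number count of reads for an Ensembl gene ID, not normalized. The submitters' processing notes list, with no roles, the build GRCm39 and the tools STAR 2.7.10b, featureCounts 2.0.1, UMI-tools 1.1.2 and bcl2fastq 2.20.0. How strand and multiply matching reads were treated is not given in the sources, so counts of overlapping genes and near-identical copies are uncertain. Besides the genes named above, other-strand exons covered, among others, 1253 of 7644 exonic bases of Ino80e, 1578 of 8744 of Rbbp4 and 452 of 3886 of Actl6a. Of the 50-base runs of Chd2 and Smarce1, 17.5% and 15.0% recur in other genes. Per the labels' protocols, DNase I removed genomic DNA and a total RNA kit was used.

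Symbols, gene class, exonic length and transcript sequence came from GENCODE release M21, in which 52135 of the IDs had a symbol. That release uses an older build, so no coordinates are given. Counts were tested with edgeR 4.0.16 (R 4.3.3), by its quasi-likelihood test (TMM factors, filterByExpr, robust estimation, group as the only term), fitted on all 12477 genes kept, with Benjamini-Hochberg adjustment over all of them and a threshold of 0.05. CPM values are TMM-scaled and folds are EU over PBS. Floors of 3 counts and intervals of single ratios cover counting error only. Shares within paralogue families are counts per kilobase of exon.

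Symbols came from a fixed pattern. The members, the roles and the lists of related genes and markers were chosen with earlier results of these data known. Genes named in full were the ATPases, the paralogue sets, the 4 members of each role with the smallest p, members without counts in a group, and the 4 related genes with the smallest p; Smarcc2 replicates and the EU replicate 2 deviations were chosen after their values were seen. Replicates of a group differed beyond sampling noise, so each was counted as its own sample. The test was tried on simulated counts. Alternatives were other scalings, filters, a replicate block, DESeq2 1.42.0, limma 3.58.1 (voom), and leaving out each library. Leaving out a library kept the same tested genes. Robust estimation in the main test, its removal as an alternative, and the counts of positive and separated genes under each alternative were chosen after seeing the data.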

Additional observations from a re-analysis of the deposited data

How the results depend on the processing

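PBS libraries were shallow and varied more between replicates than EU libraries, and the absence of calls among the remodeling genes does not show equal levels. The calls depended on the tool and the scaling. For the remodeling genes called higher (0 in the reported fit) the count was 54 with no scaling, 1 with no filter (Dpf3), 2 with DESeq2 (Dpf3 and Ep400) and 2 with limma-voom and group weights (Dpf3 and Smarcd2). None was called lower in any alternative run. Over all genes, those called higher (0 as reported) numbered 3 with library size alone, 12174 with no scaling, 82 with no filter, 1 at a mean of 50 CPM or more, 506 with DESeq2, 222 with limma-voom and 723 with group weights. Those called lower (3 as reported) numbered 34, 1, 262, 8, 438, 25 and 37 in the same order, and 0 to 10 when a library was left out. A replicate block gave 144 higher and 50 lower, with no remodeling gene among them. Whether same-numbered samples were paired is not stated. Same-numbered libraries deviated together at correlations of 0.074, 0.051 and 0.034, against -0.055 to 0 for differently numbered ones. Values this small, with PBS libraries this noisy, cannot settle whether the samples were paired. The cause of these differences was not tested.

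The median log2 fold of the remodeling genes minus that of all genes (0.025 as reported) was -0.88 with no filter, -0.27 with the block, -0.22 with group weights and -0.19 to 0.077 when a library was left out. The summed ratio (1.13) was 0.999 with library size alone. Positive folds (34 of 54) numbered 16 of 34 genes when only genes at 50 CPM or more were scaled and fitted, which also moved the median of all fitted genes to -0.037; 21 of the same 34 genes were positive in the reported fit. Positive enzymes (15 of 18) numbered 7 in that refit, which held only the enzymes at 50 CPM or more. Genes separated upward (11) numbered 6 with library size alone and 11 to 19 when a library was left out, and genes separated downward (3) numbered 3 to 12. Fewer libraries make separation easier for any gene, and these shares were not computed over all tested genes.

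Single genes that changed the sign of their log2 fold all had a reported fold smaller than 2 times its standard error, apart from those under no scaling. With library size alone these were Arid1a -0.20, Arid5b -0.18, Bptf -0.045, Chd9 -0.078, Gatad2a -0.005, Smarcad1 -0.16 and Smarcb1 -0.17. With DESeq2 size factors they were Arid1a -0.10, Arid5b -0.071, Chd9 -0.023, Smarcad1 -0.10 and Smarcb1 -0.07, and with the DESeq2 test Arid1a -0.10, Arid5b -0.07, Chd9 -0.02, Smarcad1 -0.083 and Smarcb1 -0.079. At 50 CPM or more they were Arid1a -0.13, Arid5b -0.11, Bptf -0.019, Chd9 -0.052 and Smarcb1 -0.10, and with no filter Baz2a 0.058 and Chd2 0.02. With the block they were Arid5a 0.35, Mbd2 0.16 and Smarce1 0.025. With limma-voom they were Arid5a 1.54, Baz1a 0.63, Chd2 0.046, Mbd2 0.07, Mta2 0.01 and Smarca5 0.15, and with group weights Arid5a 1.16, Baz1a 0.25, Chd2 0.007, Mbd2 0.25 and Smarca5 0.10. With no scaling they were Arid1b 4.77, Arid5a 4.60, Baz1a 3.43, Baz2a 4.86, Chd1 4.95, Chd2 4.95, Dpf1 4.45, Dpf2 4.64, Gatad2b 4.73, Ino80c 4.33, Ino80e 4.40, Mbd2 4.67, Mta2 4.82, Rbbp4 4.83, Rbbp7 4.42, Smarca5 4.97, Smarcc1 4.72, Smarcc2 4.83, Smarcd3 3.96 and Smarce1 4.69. When a library was left out, the log2 folds ranged over Arid1a -0.18 to 0.16, Arid5a -0.76 to 0.22, Arid5b -0.28 to 0.27, Baz2a -0.26 to 0.11, Bptf -0.045 to 0.38, Chd1 -0.35 to 0.17, Chd2 -0.36 to 0.14, Chd9 -0.017 to 0.19, Gatad2a -0.047 to 0.40, Ino80d -0.012 to 0.47, Mbd2 -0.99 to 0.094, Mbd3 -0.007 to 0.76, Mta2 -0.55 to 0.25, Mta3 -0.21 to 1.22, Smarca1 -0.058 to 2.11, Smarca5 -0.53 to 0.19, Smarcad1 -0.26 to 0.18, Smarcal1 -0.11 to 0.48, Smarcb1 -0.39 to 0.73, Smarcc1 -0.37 to 0.17, Smarcc2 -0.40 to 0.20 and Smarce1 -0.55 to 0.53. With upper-quartile factors or without robust estimation no sign changed.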
